A study of Mus musculus with 16 samples.

Results

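Interferon-stimulated genes are the antiviral and immune-regulatory genes that cells switch on when they sense interferon. The 40 described here were taken by name: a probe belonged to the list when its gene name in the scanner files equalled a listed symbol. All 40 names were on the array, through 56 of its 55681 probes, and 39 of the 23121 genes with a usable probe were members. RNA came from the whole brain of male mice labelled C57BL/6J, either wild type or deficient in Slc5a8, which encodes a sodium-coupled transporter of lactate and other monocarboxylates. The 4 groups were wild type at 4 months, deficient at 4 months, wild type at 18 months and deficient at 18 months, called young and old below, with 4 arrays each. How the deficiency was made, and whether the genotypes were littermates, is not given in the sources used here. The design text calls the arrays biological replicates without saying whether each was a separate animal, so each p-value reflects sample-to-sample spread alone, which may be technical.

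Type I interferons bind a receptor on the cell surface, whose kinases Jak1 and Tyk2 activate transcription factors, Stat2 among them. With Irf9, Stat2 is part of a complex that enters the nucleus and binds the interferon-stimulated response element, a run of GAAA blocks near the start of its target genes. Interferon gamma acts on a different element, called GAS. In the brain, microglia, endothelium, astrocytes and neurons can all respond, and a low basal tone keeps many of these genes expressed without infection.

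The promoters were searched for the letters of the response element and of GAS and for no others, and the shares were not tested. RefSeq (GRCm38.p6) gave a window for 29 of the 40 members, and the 250 bases before each start were searched on both strands. The core of the response element, written GAAA, any 2 bases and GAAA again, was found in 12 of 29 members (41.4%), against 3.46% of the 27025 genes in the same table. The GAS letters TTCNNNGAA were found in 6 of 29 members (20.7%), against 8.13% of those genes. A match is a string of letters and not a measured binding site. The 80 bases that hold the matches are shown for the 6 members with more than 1 match, with the core in capitals on whichever strand it lies. Neighbouring matches overlap in Gbp3, Irgm1, Isg15 and Oas1a.
Gbp3, chr3:142559964-142560043, plus strand: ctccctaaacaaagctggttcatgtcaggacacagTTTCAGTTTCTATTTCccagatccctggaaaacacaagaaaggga
Ifit1, chr19:34640759-34640838, plus strand: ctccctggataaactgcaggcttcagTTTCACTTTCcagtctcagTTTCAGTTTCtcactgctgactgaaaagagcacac
Ifit3, chr19:34583355-34583434, plus strand: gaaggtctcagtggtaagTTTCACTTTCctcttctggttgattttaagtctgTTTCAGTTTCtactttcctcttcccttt
Irgm1, chr11:48871421-48871500, minus strand: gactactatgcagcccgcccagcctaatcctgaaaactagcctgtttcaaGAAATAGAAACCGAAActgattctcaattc
Isg15, chr4:156200846-156200925, minus strand: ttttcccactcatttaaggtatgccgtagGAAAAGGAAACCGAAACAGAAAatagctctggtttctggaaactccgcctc
Oas1a, chr5:120907526-120907605, minus strand: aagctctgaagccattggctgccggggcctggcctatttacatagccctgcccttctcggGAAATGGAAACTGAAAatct
Of the members called in any comparison below, 5 had a window and 2 of them (40%) held the core. Of the other members with a window, 10 of 24 (41.7%) held it.

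Levels below are log2 of the processed signal minus the 75th percentile of the same array, so 0 is that percentile. They are compared between arrays and never between genes. A gene is called where limma gave an adjusted p under 0.05 over all 23121 genes. Between 58.4% and 66.08% of spots were well above background on an array, and none was saturated. All deficient arrays were on 1 slide and in 1 scan session and all wild-type arrays on another, so genotype and slide cannot be told apart in any genotype comparison. The ages of each genotype lay in different rows of its slide, so age and slide row cannot be told apart within a genotype. At each age the genotypes also lay in different rows, so genotype and slide row cannot be told apart at 4 or at 18 months. In the average over genotypes each age occupied each row once. Young deficient array 1 stood apart from all others on the first principal component (97.4, against -26.306 to 26.633). Young wild-type array 1 had the highest choroid plexus signal. The old wild-type arrays stood apart in a few transcripts outside the list: the predicted gene Gm1987 was 45.4 times higher there than in young wild type and 83 times higher than in old deficient mice (adjusted p = 2.767e-08 and 2.496e-09, limma). The part of this in the comparisons that use old wild type was not tested. The probe for Slc5a8 was above background on none of the 16 arrays and so did not separate the genotypes (young deficient -7.12 ± 0.62 and young wild type -7.15 ± 0.40, SD, n = 4 each; 2-sided exact permutation p = 0.9714). Whether that probe lies in a deleted part is not given. Neuron, astrocyte, oligodendrocyte and microglia markers, all that were listed, were above background on every array.

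Of the 39 tested members, 38 were above background on all 16 arrays. Mx1, whose protein blocks influenza virus and whose gene is defective in most laboratory strains, was above background on 14 arrays. Oas3, an oligoadenylate synthetase, was above background on none and was not tested. Young deficient mice had the lowest mean of the 4 groups for 24 of 39 members, where 30.5% of all genes were lowest in that group. Old deficient mice had the highest mean for 16 members, where 26.6% of all genes were highest there. The average over the 39 members, each centred on its own mean, was -0.11, -0.16, -0.15 and -0.18 on the young deficient arrays. It was 0.22, -0.10, 0.02 and 0.03 in young wild type, 0.12, 0.04, 0.04 and 0.02 in old wild type, and -0.08, 0.17, 0.17 and -0.05 in old deficient mice. On young wild-type array 1, 36 of the 39 members were above their own mean. The young deficient arrays lay below all the others in this average. They did so by little, and the spread was as wide in old deficient (SD 0.14) as in young wild type mice (SD 0.13). Spread within groups was similar for members and for all genes, with a median pooled SD of 0.237 and 0.2394.

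**Figure D1:**
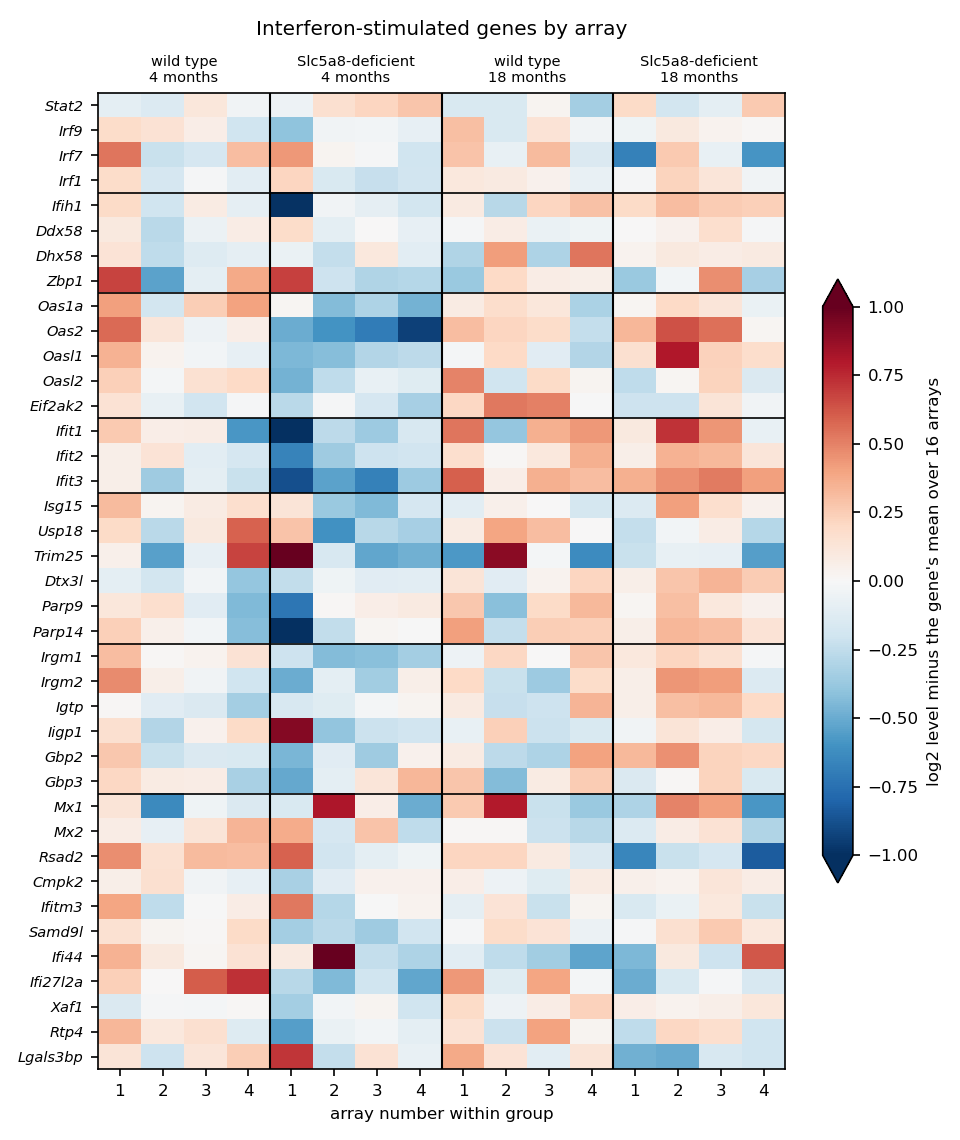
Heat map of the 39 tested members, ordered by role, on the 16 arrays, with colour for the log2 difference of each array from the gene's mean over all arrays. The young deficient columns hold most of the low values of the OAS and IFIT rows, with averages of -0.35 and -0.48. In these columns the sensor rows averaged -0.11 and the transcription factor rows -0.0038.

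At 4 months, 29 of 39 members were lower in deficient than in wild-type brain and 10 were higher. The median member difference was -0.16 on the log2 scale, against 0.02 for all genes. Lower in the test were 4 members and higher none, where 0.865% of all genes were called lower and 1.54% called in either direction. At an unadjusted p under 0.05 there were 10 members, against 17.4% of all genes. The 4 were Oas2, Ifi27l2a, Irgm1 and Samd9l. In bulk tissue, fewer cells of a type and less RNA per cell cannot be told apart in these values or in those that follow.

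The OAS proteins sense double-stranded RNA and make a messenger that switches on the RNA-degrading enzyme RNase L, while Eif2ak2, also called PKR, halts translation on the same cue. All 5 measured members of this group were lower in young deficient mice, with a median of -0.43, and 1 was called. The Oas2 probe (mm9, chr5:121180343-121180402) read -2.24, -2.69, -2.86 and -2.74 in young wild type and -3.30, -3.40, -3.51 and -3.74 in young deficient mice. Every young deficient array was below every young wild-type array. Oas2 was 1.81-fold lower (-0.86 ± 0.17, SE, n = 4 against 4; limma adjusted p = 0.02199). Without young wild-type array 1 the difference was -0.73 and no longer called (adjusted p = 0.06824), and without young wild-type array 2 or young deficient array 3 the adjusted p was 0.05475 or 0.05186. Its call was also lost with normexp (-0.55, adjusted p = 0.09298), with no filter on dim probes (adjusted p = 0.05367) and without young wild-type array 1 and young deficient array 1 together (-0.79, adjusted p = 0.06716). Oas1a differed by -0.52 ± 0.15 (adjusted p = 0.1012) and its groups overlapped. A dimmer Oas1a probe gave -0.255 (limma adjusted p over probes 0.5076). Oasl1, an OAS-like protein known to restrain Irf7, differed by -0.43 ± 0.15 (adjusted p = 0.1612). Its young deficient arrays, at -3.39 to -3.20, all lay below the young wild-type arrays at -3.02 to -2.59. Oasl2 differed by -0.37 (adjusted p = 0.2064) and Eif2ak2 by -0.16 (adjusted p = 0.5376).

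IFIT proteins bind viral RNA ends and block its translation, and their genes sit side by side on chromosome 19. The 3 members were all lower in young deficient mice, by -0.34 to -0.46, and none was called. Ifit3 (mm9, chr19:34663105-34663164) read 0.54, 0.13, 0.38 and 0.26 in young wild type and -0.40, -0.06, -0.20 and 0.12 in young deficient mice. The groups came close but did not overlap, and the difference of -0.46 ± 0.13 missed the threshold (adjusted p = 0.09258). Ifit2 differed by -0.34 ± 0.12 (adjusted p = 0.1783) and Ifit1 by -0.44 ± 0.26 (adjusted p = 0.4047). Ifit3, Ifit1 and Oas1a have related neighbouring genes, so signal from these neighbours may be mixed in their probes.

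Among the interferon-inducible GTPases, which attack the vacuoles of intracellular pathogens, 4 of 6 were lower and 1 was called. Irgm1, which restrains the other GTPases of its family, read 0.54, 0.25, 0.26 and 0.38 in young wild type and 0.03, -0.20, -0.19 and -0.11 in young deficient mice (mm9, chr11:48679069-48679128). Its groups did not overlap, and it was 1.39-fold lower (-0.48 ± 0.10, adjusted p = 0.03256, limma). A dimmer Irgm1 probe gave -0.29 (adjusted p over probes 0.4494), and with the mean of the gene's probes the difference was -0.38 (adjusted p = 0.1021). The other GTPases ranged from -0.30 for Irgm2 to 0.08 for Igtp.

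Of 11 further effectors, 8 were lower and 2 called. Ifi27l2a, a small membrane protein of the Ifi27 family, read 0.40, 0.17, 0.77 and 0.89 in young wild type and -0.11, -0.28, -0.04 and -0.35 in young deficient mice (mm9, chr12:104680394-104680453). It was 1.68-fold lower (-0.75 ± 0.17, adjusted p = 0.04308, limma), with no overlap. Samd9l, which shuts down translation in infected cells, read -0.09, -0.21, -0.23 and -0.05 in young wild type against -0.58, -0.51, -0.59 and -0.43 (mm9, chr6:3322520-3322579). Its difference was small but tight, 1.3-fold lower (-0.38 ± 0.09, adjusted p = 0.04574). A further probe of Samd9l gave -0.40. Its call was lost in 15 of the 16 fits that each left out 1 array, that of Ifi27l2a in 10 and that of Irgm1 in 7.

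Over all members, 8 had young deficient arrays entirely below the young wild-type arrays and none entirely above. The background was 4.81% of all genes entirely below and 4.64% entirely above. The 8 were Oas2, Oasl1, Oasl2, Ifit2, Ifit3, Irgm1, Samd9l and Ifi27l2a. Members with more than 1 usable probe did not always read the same way. In this comparison the brightest and the other probe gave 0.04 and -0.53 for Ddx58, 0.00 and -0.63 for Iigp1, 0.26 and -0.16 for Trim25, and -0.11 and 0.26 for Cmpk2, and the counts of members lower and higher take the brightest probe. No member was called in this comparison without young wild-type array 1, without young deficient array 3, or without young wild-type array 1 and young deficient array 1 together. The median member difference stayed below 0 in all of these.

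**Figure D2:**
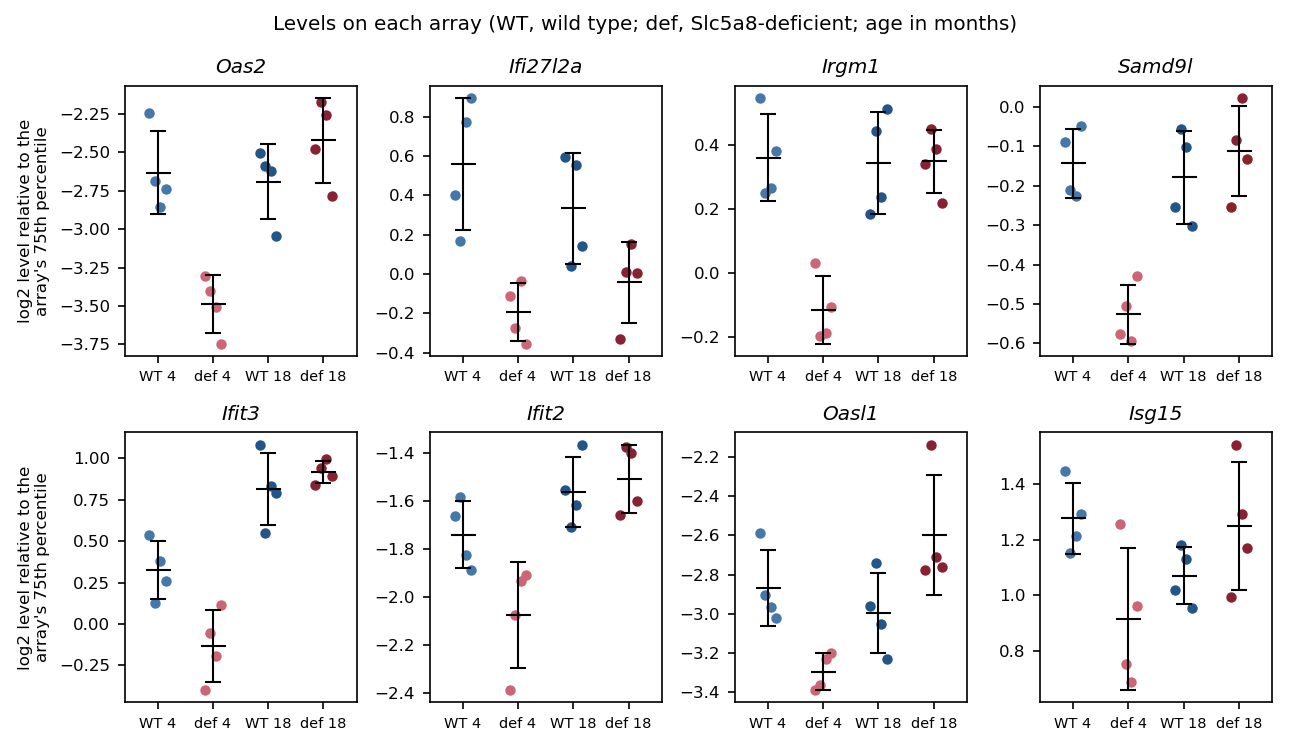
Level of 8 members on each array (log2, with 0 at the 75th percentile of that array), by group, with 1 point per array and a bar for the group mean. The young deficient points lie below all others for Oas2, Irgm1, Samd9l, Ifit3 and Ifit2, and Ifit3 is higher at 18 than at 4 months in both genotypes.

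The marker lists of other cell types moved in the same comparison, and their part in it was not tested. Of 14 choroid plexus markers, all 14 were lower in young deficient mice (median -0.78) and none was called. Their average, centred per gene, ran from -0.11 to 1.59 in young wild type and from -0.45 to 0.09 in young deficient mice. Of 10 ependyma markers 9 were lower, with averages of 0.06 to 0.51 against -0.30 to -0.20, and Ccdc153 was called (-1.70, adjusted p = 0.01347). Of 20 microglia markers 9 were lower, including the called Ly86 (-0.65, adjusted p = 0.03356) and Sall1 (-0.45, adjusted p = 0.03284), and the median was 0.08. Of 15 endothelial markers 10 were lower, with Ocln called (-0.66, adjusted p = 0.02199). Of 10 measured T and NK cell markers 8 were higher and 1 was called, while the defining genes Cd3d, Cd3g and Cd8a had no probe that passed the filter on background.

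At 18 months no member passed the test for genotype. Of 39 members, 23 were higher in deficient mice, 16 were lower and none was called, where 1.47% of all genes were called. At an unadjusted p under 0.05 there were 5 members, against 9.91% of all genes. The median member difference was 0.04, against 0.01 for all genes. The smallest p belonged to Rsad2, known as viperin, which makes a nucleotide that stops viral polymerases. It read -2.45, -2.45, -2.58 and -2.80 in old wild type and -3.31, -2.88, -2.83 and -3.49 in old deficient mice, without overlap, as were 3.64% of all genes on the lower side (-0.56 ± 0.18, adjusted p = 0.1842). The secreted glycoprotein Lgals3bp also did not overlap, at 2.02 to 2.50 in wild type and 1.62 to 1.96 in deficient mice (-0.47 ± 0.18, adjusted p = 0.3313). Eif2ak2 (-0.39 ± 0.13) and Ifi27l2a (-0.37 ± 0.17) had differences below 0, and Oasl1 (0.40 ± 0.15), Gbp2 (0.32 ± 0.16), Igtp (0.22 ± 0.13) and Stat2 (0.20 ± 0.12) above 0, with adjusted p between 0.2241 and 0.687. Of the 4 members called at 4 months, Oas2 differed at 18 months by 0.27, Samd9l by 0.07 and Irgm1 by 0.00.

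Averaged over the ages, 1 member differed by genotype and 29 of 39 were lower in deficient mice, with a median of -0.08. In this comparison 1.52% of all genes were called lower and 3.17% called in either direction, so 1 of 39 members is near the background share. The member was Ifi27l2a, 1.48-fold lower (-0.56 ± 0.12, adjusted p = 0.01938, limma). Its old wild-type arrays read 0.59, 0.04, 0.56 and 0.14 and its old deficient arrays -0.33, 0.01, 0.15 and 0.01, so the genotypes overlapped at 18 months. This call held with every array left out in turn and under every alternative tried (highest adjusted p = 0.04681). Irgm1 (-0.24 ± 0.07), Rsad2 (-0.40 ± 0.13), Eif2ak2 (-0.28 ± 0.09), Oasl2 (-0.27 ± 0.10), Usp18 (-0.35 ± 0.14), Samd9l (-0.16 ± 0.06) and Oas2 (-0.30 ± 0.12) followed, with adjusted p between 0.1009 and 0.2333. Usp18, which strips Isg15 from proteins and damps the interferon receptor, was lower at both ages, by -0.38 and -0.31. Microglia markers were also lower in this average for 17 of 20, with Ly86, Trem2, Sall1 and Fcrls called. Also below wild type were 14 of 14 choroid plexus markers (median -0.50, none called), 10 of 10 ependyma markers, with Ccdc153 called, and 13 of 15 endothelial markers, with Ocln called. Of the microglia markers, Ly86 and Sall1 were also called at 4 months. The average of the microglia markers differed more between genotypes at 18 months, which was not tested. Their average, centred per gene, was 0.22 in old wild type and -0.10 in old deficient mice. In young wild type it was -0.03 and in young deficient mice -0.09. The part of these lists in the difference was not tested.

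**Figure D3:**
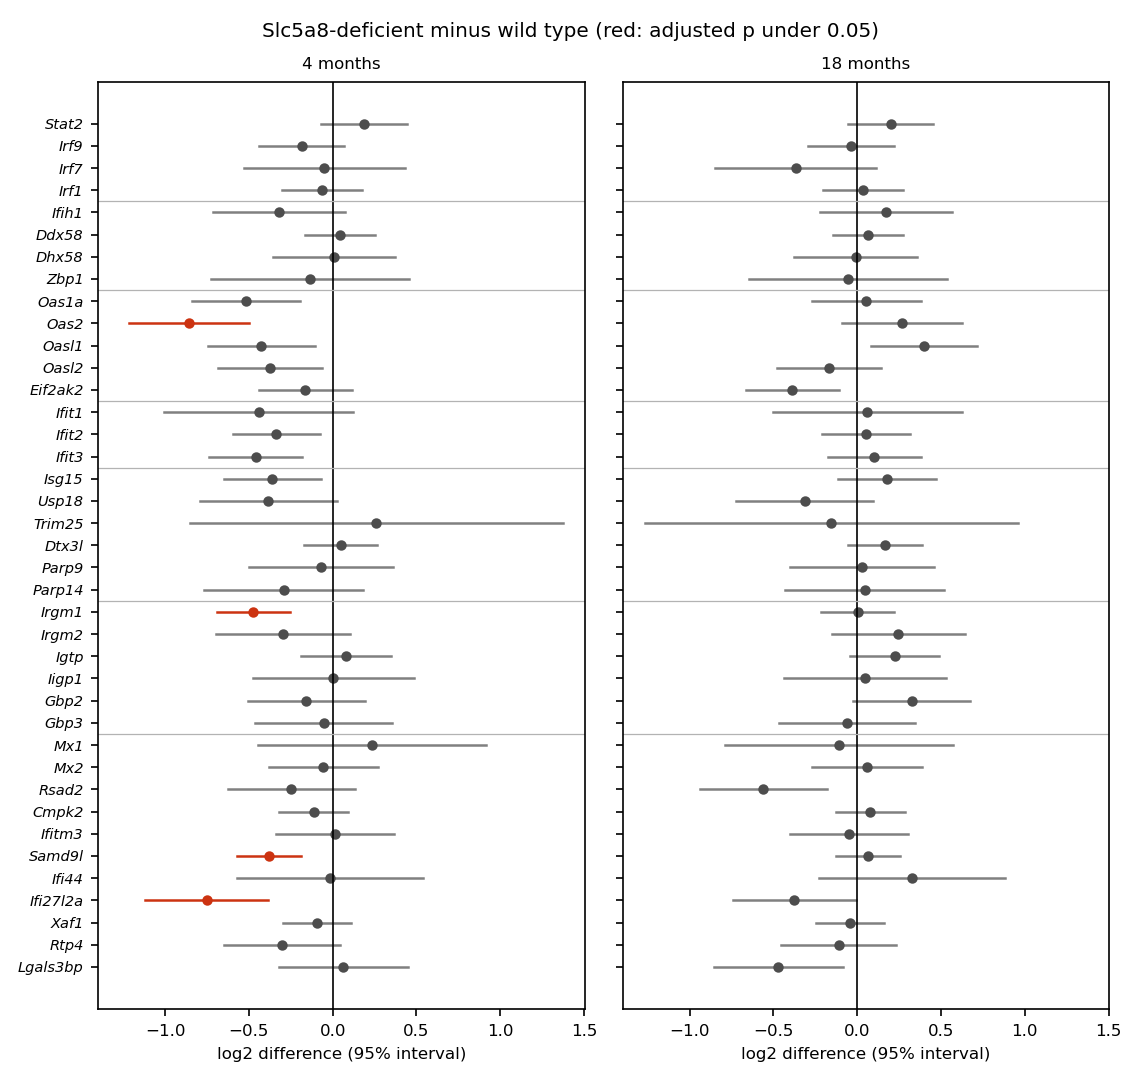
Difference between deficient and wild type for each member at 4 months and at 18 months (log2, with 95% confidence intervals from limma), ordered by role. At 4 months the intervals of the 4 called members lie below 0, and at 18 months no member was called.

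In wild-type brain no member passed the test for age. From 4 to 18 months, 19 of 39 members were higher and 20 lower, with a median of -0.01, and none was called where 0.424% of all genes were. At an unadjusted p under 0.05 there were 3 members, against 6.36% of all genes. Ifit3 came nearest, at 1.08, 0.55, 0.83 and 0.79 in old wild type against the young readings above. Its ages did not overlap, as was so for 3.51% of all genes, and the difference was 0.49 ± 0.13 (adjusted p = 0.1996). Eif2ak2 (0.34 ± 0.13, adjusted p = 0.5768) and Dtx3l (0.24 ± 0.10, adjusted p = 0.7043) were next. Ifi44 had every old array below every young array (-0.46 ± 0.26, adjusted p = 0.9568). Isg15 (-0.21 ± 0.14), Mx2 (-0.23 ± 0.15), Ifit2 (0.18 ± 0.12) and Xaf1 (0.15 ± 0.09) had an adjusted p of 0.9998.

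In deficient brain, 6 members rose with age and none fell in the test. Here 28 of 39 members were higher at 18 months and 11 lower, with a median of 0.17 against -0.01 for all genes, and 1.26% of all genes were called higher (2.37% in either direction). At an unadjusted p under 0.05 there were 18 members, against 21% of all genes. This comparison uses the same young deficient arrays as the genotype comparison at 4 months, so the results are not independent of each other. The 6 were Ifit3, Oas2, Oasl1, Ifit2, Samd9l and Irgm1.

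Ifit3 read 0.84, 0.94, 0.998 and 0.89 in old deficient mice, against the young deficient readings of -0.40 to 0.12. It was 2.07-fold higher (1.05 ± 0.13, adjusted p = 0.001499, limma). Ifit2 (mm9, chr19:34650244-34650303) read -2.39, -2.08, -1.93 and -1.91 in young and -1.66, -1.38, -1.40 and -1.60 in old deficient mice, 1.48-fold higher (0.57 ± 0.12, adjusted p = 0.02794). The ages did not overlap for either gene. Ifit1, the third of this family, did not overlap either, at -4.07 to -3.08 in young and -2.99 to -2.19 in old deficient mice, but missed the threshold (0.78 ± 0.26, adjusted p = 0.1208).

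Of the OAS group, all 5 were higher with age, with a median of 0.37, and 2 were called. Oas2 read -2.48, -2.17, -2.26 and -2.79 in old deficient mice, all above the young deficient arrays and 2.09-fold higher (1.07 ± 0.17, adjusted p = 0.006076). Oasl1 (mm9, chr5:115387861-115387920) rose from -3.39, -3.36, -3.23 and -3.20 to -2.78, -2.14, -2.71 and -2.76, a 1.62-fold difference (0.70 ± 0.15, adjusted p = 0.02692). Old deficient array 2 was the highest Oasl1 reading by far, and without it the difference was 0.54 and not called (adjusted p = 0.07453).

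Irgm1 read 0.34, 0.45, 0.38 and 0.22 in old deficient mice, 1.38-fold above young deficient (0.46 ± 0.10, adjusted p = 0.03093). Its dimmer probe gave 0.23 (adjusted p over probes 0.4982). Samd9l read -0.25, -0.08, 0.02 and -0.13, a 1.33-fold difference (0.41 ± 0.09, adjusted p = 0.02794). Both genes had old deficient means (0.35 and -0.11) close to those of young wild type (0.36 and -0.14). Next came Dtx3l, a ubiquitin ligase that partners Parp9, at 0.36 ± 0.10 (adjusted p = 0.07477), and the guanylate-binding protein Gbp2 at 0.52 ± 0.16 (adjusted p = 0.1006).

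Altogether 13 members had old deficient arrays entirely above the young deficient arrays and none entirely below, where 7.8% of all genes lay entirely above and 10.1% entirely below. Rsad2 and Lgals3bp went the other way, with differences of -0.53 ± 0.18 (adjusted p = 0.1198) and -0.47 ± 0.18 (adjusted p = 0.1645). Without young deficient array 2 the called members numbered 2, Ifit3 and Oas2, and the same 2 were called without old deficient array 2. Without old deficient array 3 they were Ifit3, Oas2 and Oasl1. Both Ifit3 and Oas2 were called with each of the 16 arrays left out and under every alternative.

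Red blood cell genes moved in the same comparison. Of 9 such genes, Ahsp, Alas2, Hbb-bt, Hbb-b2, Hba-a1 and Hba-a2 were called lower in old deficient mice, by -1.64 to -2.75. Their average ran from 0.11 to 1.57 in young and from -1.86 to -0.16 in old deficient mice. Of 20 microglia markers 9 were higher with age in deficient mice (median -0.08) and none was called. Of 10 T and NK cell markers 3 were higher, with Cd2 called (1.42, adjusted p = 0.02705). The part of these lists in the rise of the interferon-stimulated genes was not tested.

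**Figure D4:**
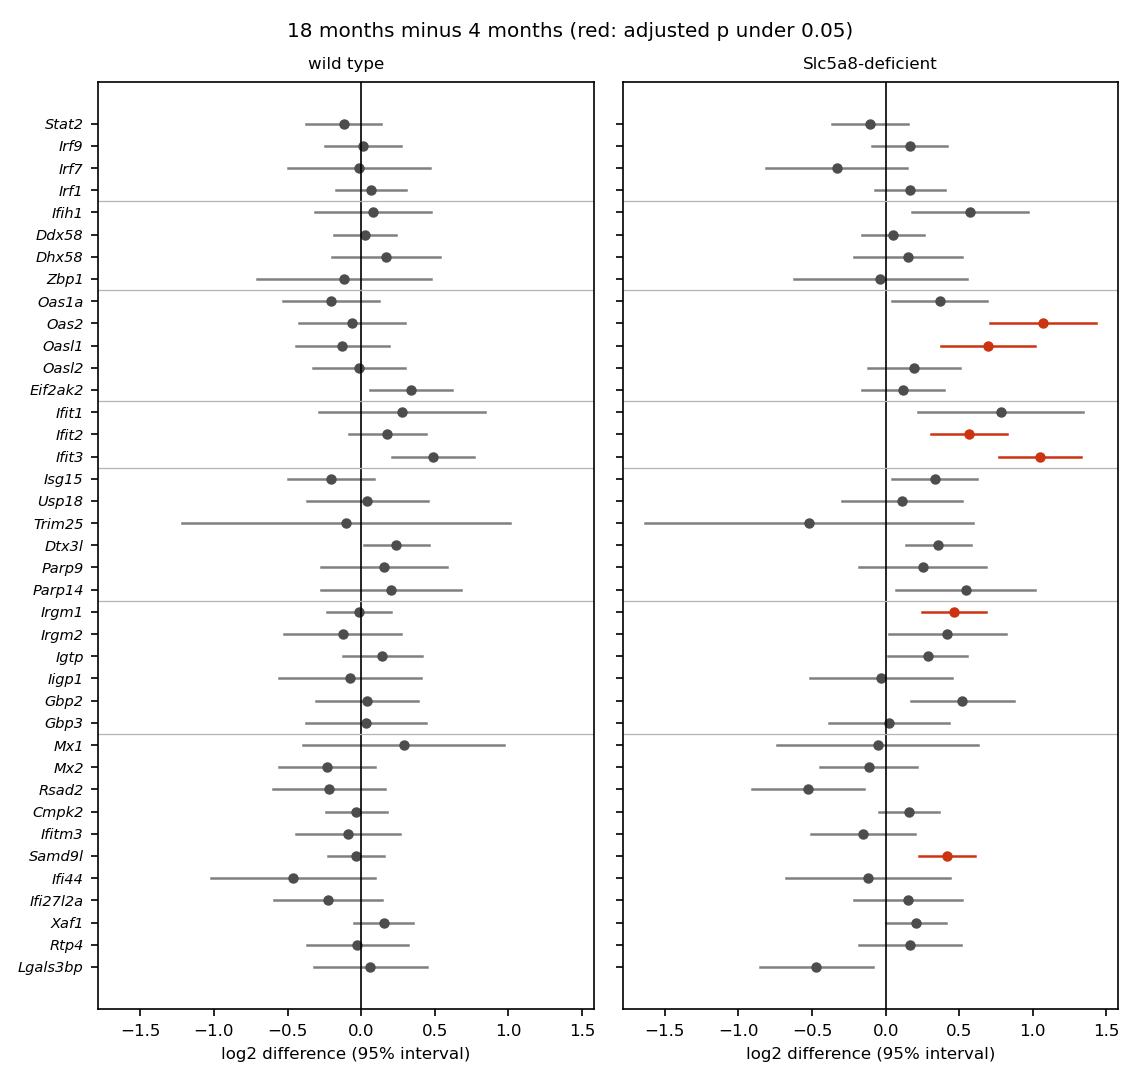
Difference between 18 and 4 months for each member in wild-type and in deficient mice (log2, with 95% confidence intervals from limma), ordered by role. In deficient mice the intervals of Ifit3, Oas2, Oasl1, Ifit2, Samd9l and Irgm1 lie above 0, and in wild type no member was called.

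Averaged over genotypes, where each age was measured in both slide rows, 3 members were called higher at 18 months, namely Ifit3, Ifit2 and Oas2. In all, 28 of 39 were higher at 18 months, with a median of 0.09, where 0.692% of all genes were called higher (1.61% in either direction). Ifit3 was 1.7-fold higher with age (0.77 ± 0.09, adjusted p = 0.0005037, limma), and every old array of either genotype was above every young array. Background for a gene higher in that way was 0.156%. Ifit2 was 1.29-fold higher (0.37 ± 0.09, adjusted p = 0.04294) and Oas2 1.42-fold higher (0.50 ± 0.12, adjusted p = 0.04816). In wild type alone the age differences were 0.49 for Ifit3, 0.18 for Ifit2 and -0.06 for Oas2. In deficient mice they were 1.05, 0.57 and 1.07, so the averaged difference of Oas2 came from the deficient arrays. The call of Oas2 was lost in 12 of the 16 fits that left out an array and that of Ifit2 in 11, while Ifit3 was called in all 16. Dtx3l (0.30 ± 0.07, adjusted p = 0.05258) lay just outside the threshold. Irgm1 (0.22 ± 0.07), Samd9l (0.19 ± 0.06), Ifit1 (0.53 ± 0.19) and Rsad2 (-0.37 ± 0.13) followed, with adjusted p of 0.1465 to 0.1907. Marker lists moved with age in this average as well. All 9 red blood cell genes were lower at 18 months with none called, and 13 of 14 choroid plexus markers were lower with none called. Of 15 pericyte and meningeal markers 11 were lower, with the collagen genes Col3a1, Col1a1 and Col1a2 called, and of 10 ependyma markers 8 were lower, with Spag6 called higher. Of 20 microglia markers 15 were higher (median 0.13) and none was called. The part of these lists in the age differences was not tested.

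Whether age acted differently in the genotypes was tested as an interaction, and no member was called. The difference of the age effects was above 0 for 30 of 39 members, with a median of 0.14, where 0.19% of all genes were called. At an unadjusted p under 0.05 there were 8 members, against 10.6% of all genes. Oas2 came nearest, with an age effect of -0.06 in wild type and 1.07 in deficient mice, a difference of 1.13 ± 0.24 (95% interval 0.62 to 1.63, adjusted p = 0.09229). Oasl1 (0.82 ± 0.21), Samd9l (0.45 ± 0.13), Irgm1 (0.48 ± 0.14), Ifit3 (0.56 ± 0.18), Isg15 (0.54 ± 0.19), Oas1a (0.57 ± 0.22) and Ifit2 (0.39 ± 0.17) had adjusted p between 0.1815 and 0.4553. The calls in deficient mice and their absence in wild type therefore do not amount to a tested difference between genotypes, and slide row cannot be told apart from this interaction.

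The signal relays and sensors were not called in any of the 7 comparisons. Of the transcription factors, Stat2 differed at 4 months by 0.19, Irf9 by -0.19, Irf1 by -0.06 and Irf7, the amplifier of interferon production, by -0.05. The RNA sensor Ifih1, also called Mda5, gave -0.32 at 4 months and 0.57 with age in deficient mice (adjusted p = 0.1107). Young deficient array 1 read far below the other arrays of its group for this gene. The sensor Dhx58 differed by 0.01 at 4 months and Zbp1, which binds Z-form nucleic acid, by -0.14. Of the Isg15 and ubiquitin group, none of 6 was called in any comparison. Isg15, the ubiquitin-like protein itself, read 1.45, 1.15, 1.21 and 1.29 in young wild type and 1.26, 0.75, 0.69 and 0.96 in young deficient mice (-0.36 ± 0.14, adjusted p = 0.1934). The highest deficient array lay above 2 of the wild-type arrays, so the groups overlapped. Of the remaining effectors, Ifitm3, which stops viruses from fusing with the cell, differed by 0.02 at 4 months and by -0.15 with age in deficient mice.

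Above the members in the pathway, no measured gene was called. Of 19 interferon genes 7 were measured, and none was called in any comparison. Ifnb1 and Ifng had no probe that passed the filter on background. Of 16 receptor and signalling genes all 16 were measured and none was called in any comparison. The receptor subunit Ifnar1 differed by -0.29 with age in deficient mice (adjusted p = 0.1354) and the kinase Jak2 by 0.31 (adjusted p = 0.2207). Of 16 genes that induce interferon 15 were measured and none was called in any comparison.

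Interferon-stimulated genes outside the 40 were listed as well, and 52 of 62 were measured. At 4 months 37 of 52 were lower in deficient mice, with a median of -0.14, and none was called. With age in deficient mice 36 of 52 were higher, with a median of 0.17, and 1 was called, the ubiquitin ligase gene Trim34a (0.45 ± 0.09, adjusted p = 0.01697, limma). That is 1.92% of the 52, against 2.37% of all genes. Averaged over the ages, Bst2, or tetherin, which holds budding viruses at the cell surface, was the 1 gene of the 52 called, lower in deficient mice (-0.71 ± 0.14, adjusted p = 0.0106), where 3.17% of all genes were called. Its group means were 0.85 in young wild type, 0.09 in young deficient, 0.86 in old wild type and 0.20 in old deficient mice. The average over the 52, centred per gene, was 0.02 ± 0.11, -0.11 ± 0.07, 0.04 ± 0.05 and 0.05 ± 0.09 in young wild type, young deficient, old wild type and old deficient mice (SD, n = 4 each). The microglia markers, by the same measure, were highest in old wild type at 0.22 ± 0.09 and lay at -0.03, -0.09 and -0.10 in the other groups.

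**Figure D5:**
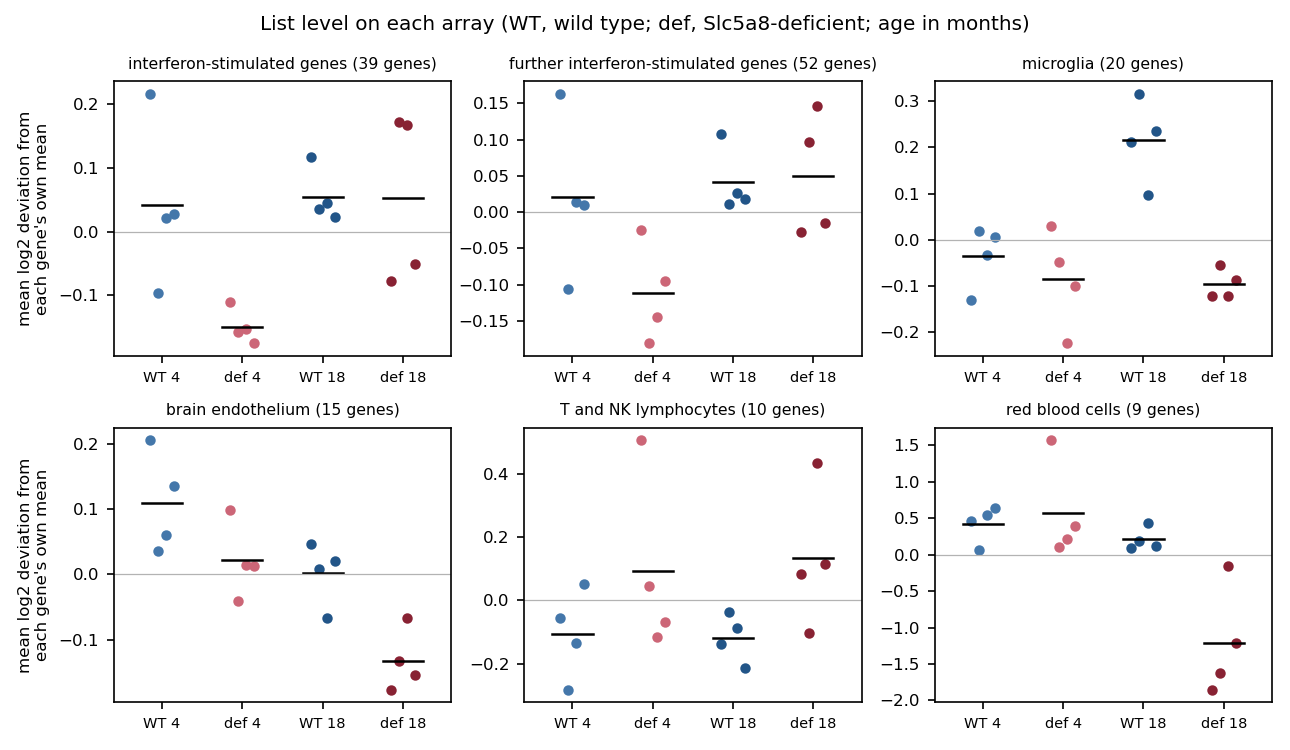
Average level of each gene list on each array (log2, each gene centred on its mean over the 16 arrays) by group, for the members, the further interferon-stimulated genes and cell type markers, with 1 point per array and a bar for the group mean. The young deficient arrays are lowest for the members, while microglia markers are highest in old wild type and red blood cell genes lowest in old deficient mice.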

How the data were processed

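Whole-brain RNA was labelled with Cy3 and hybridised to Agilent mouse arrays in 1 colour, 16 arrays in all, per the labels' protocols. The authors deposited spot intensity files from Feature Extraction, whose processed intensity had background subtracted per the file headers, and a value table of log2 values whose scale and steps are not stated (column medians 6.606 to 6.622). The submitters' processing notes name limma, and no steps are given in the sources used here. Strain and age values are interchanged in the labels. Probe coordinates are mm9, per the file headers.

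Here, levels were log2 processed intensity minus each array's 75th percentile. Of 55681 probes from 59305 non-control spots, 33072 were kept for being well above background on all 4 arrays of a group, and the brightest kept probe stood for a gene. Means of the 4 groups were fitted with limma 3.58.1 (R 4.3.3), with Benjamini-Hochberg adjustment over 23121 genes and a threshold of 0.05, and contrasts gave genotype, age and their interaction. Files were read with the R package data.table (version 1.17.8). The number of arrays limits the precision. Motifs were searched in RefSeq windows of GRCm38.p6, used for no probe coordinates. Values are given for every called member and, where fewer than 8 were called, for those of smallest p up to 8. Called genes of other lists are named where the list stands beside a result, and some are not reported here. Members and lists were chosen with earlier results of these data known. Features named outside that rule (Gm1987, Slc5a8, role and pathway examples) were chosen after their values were seen. Alternatives were normexp, quantile normalization, the deposited table, averaged probes, no or a stricter filter on dim probes, the replicate number as a block, slide as a block, and each array left out. Leaving out young wild-type array 1 and young deficient array 1 together was chosen after seeing the data.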

Additional observations from a re-analysis of the deposited data

Results flagged for a closer look

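In 9 of 160 groups of 4 arrays tested (each member in each group, and the average over members in each group), 1 array lay far from the other 3, where chance gives about 1 in 20 groups. Of these, 7 were young deficient array 1, which also stood apart over all genes. On that array Trim25 read 5.4 where the other arrays of its group read 2.57 to 2.93. Iigp1 read -1.64 there, against -2.95 to -2.74, and Zbp1 read -3.24, against -4.22 to -4.13. Below the other arrays of the group were Ifih1 at -2.44 (others -1.64 to -1.49), Parp9 at -2.64 (others -1.9 to -1.83), Rtp4 at -0.32 (others 0.13 to 0.2) and Irf9 at 0.12 (others 0.44 to 0.49). The remaining arrays were old deficient array 2, where Oasl1 read -2.14 against -2.78 to -2.71, and young wild-type array 1, where Gbp2 read -0.66 against -1.15 to -1.07. The gap in Oasl1 touches a called member, whose call in the age comparison of deficient mice was lost without that array. None of the other 8 genes was called in any comparison.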

How the results depend on the processing

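The median member difference at 4 months stayed below 0, and that with age in deficient mice above 0, under every alternative. Medians at 18 months and with age in wild type changed sign with the scaling and are read as no direction. Leaving out young wild-type array 1 and young deficient array 1 together moved the latter to 0.0713. None of the members of smallest p in each comparison, up to 8, changed direction under the alternatives other than slide as a block, which was run for counts only.

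Members called, against 4 for genotype at 4 months, were 1 with normexp, 0 with no filter on dim probes and 0 without those 2 arrays. Against 6 for age in deficient mice they were 2 with no filter and 3 without those arrays. Against 3 for age averaged over genotype they were 1 with no filter and 1 with slide as a block. Genotype averaged over age gave 2 in place of 1 without those arrays, with Rsad2 added. Leaving out each array in turn gave 0 to 4, 2 to 6, 1 to 3 and 1 to 2 members in these comparisons, and 0 to 0 for genotype at 18 months, age in wild type and the interaction. The medians then ran from -0.19 to -0.10, 0.15 to 0.21, 0.07 to 0.13, -0.11 to -0.04, -0.01 to 0.07, -0.0501 to 0.0713 and 0.105 to 0.207 in that order.

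Over all genes, no filter on dim probes, which adds genes to the adjustment, gave 144 calls in place of 355 for genotype at 4 months, 226 in place of 340 at 18 months, 455 in place of 733 averaged over age, 225 in place of 548 for age in deficient mice, 215 in place of 373 averaged over genotype and 22 in place of 44 for the interaction. Normexp gave 57 in place of 98 for age in wild type, and 361, 247 and 29 for age in deficient mice, age averaged over genotype and the interaction. Without the same 2 arrays, genotype at 4 months gave 120 and age in deficient mice 331. Slide as a block gave 237 for age averaged over genotype. The causes of these shifts were not tested. Leaving out 1 array gave 109 to 414, 179 to 521, 502 to 945, 61 to 131, 157 to 659, 194 to 451 and 21 to 66 calls for genotype at 4 and 18 months and averaged, age in wild type, in deficient mice and averaged, and the interaction.

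The replicate number, which is also the slide column, did not pair the arrays: same-numbered arrays correlated above 0.1 in 7 of 24 pairs (-0.444 to 0.274), and 8 were best matched to their own number. With the replicate number as a block, calls over all genes were 199 for genotype at 4 months, 284 for age in deficient mice and 25 for the interaction. Members called were then 1 (Oas2), 3 (Ifit3, Oas2 and Oasl1) and 1 in these comparisons, the last being Oas2 in the interaction (adjusted p = 0.04701, limma).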
